A study of Mus musculus with 27 samples.

Results

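The Peg3 domain of proximal mouse chromosome 7 (Peg3, Usp29 and Zim1) and the Snrpn domain of central chromosome 7 (Snrpn, Ndn, Magel2, Mkrn3, Peg12 and Ube3a) were examined in Zfp512b knockout cells. These 9 genes of the 25209 listed were chosen by name, after their fold changes against wild type (WT) in the same libraries were known, and all 9 are accounted for. RNA of V6.5 mouse embryonic stem cells was sequenced from unedited WT cells and from the clones KO4 and KO8. Each knockout is 1 clone that carries a triple transcription terminator behind the third exon of Zfp512b together with an mCherry or puromycin resistance gene, and no WT cells went through the same editing and selection, so clone, editing and loss of the gene cannot be told apart. Naive cells (Day 0, 3 libraries per group) were grown in serum-free medium with LIF and 2 kinase inhibitors, against MEK and GSK3. Primed cells (Day 2), embryoid bodies differentiated toward cardiomyocytes (CM, Day 7.5) and embryoid bodies treated with retinoic acid that contain neural progenitor cells (NPC, Day 10) had 2 libraries per group. Nothing in the labels ties replicates to separate cultures, so the spread between them may be technical.

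An imprinted gene is read mainly from the copy of 1 parent, and DNA methylation laid down in the germline at a control region of the domain marks which one. Peg3, Usp29, Snrpn, Ndn, Magel2, Mkrn3 and Peg12 are known as paternally expressed genes, Zim1 as a maternally expressed one, and Ube3a as maternally expressed in neurons and expressed from both copies in most other cells. In humans, loss of the paternal genes of the Snrpn domain underlies Prader-Willi syndrome and loss of maternal UBE3A underlies Angelman syndrome. The deposited values are not split by allele, so a level here is the sum over both parental copies.

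In mm9, the build of the authors, Zim1 spans chr7:6628154-6649161 and Peg3 chr7:6656603-6683132, both on the minus strand, and the annotated Usp29 model spans chr7:6913871-6916480 on the plus strand. In the central domain Ube3a lies at chr7:66484122-66562097 on the plus strand, Snrpn at chr7:67127388-67285105 on the minus strand, Ndn at chr7:69493163-69494814 and Magel2 at chr7:69521865-69526526 on the plus strand, and Mkrn3 at chr7:69562479-69565039 and Peg12 at chr7:69606757-69609396 on the minus strand. Ndn, Magel2, Mkrn3, Peg12 and the Usp29 model have 1 exon each, a structure shared by 9.4% of 20420 annotated protein-coding genes. The 250 bases in front of the start sites of Peg3, Usp29, Zim1, Magel2 and Peg12 are shown because KO4 stood farthest from WT at Usp29, Zim1, Magel2 and Peg12 among the members with recovered reads, because Peg3 shares its start region with Usp29, and because CpG dinucleotides, in capitals, are where an imprint is written. The sequences are RefSeq's (GRCm38.p6), read 5′ to 3′ on the gene's own strand, and each occurs once on chromosome 7 of mm9, where it is placed.
Peg3, chr7:6683131-6683380, minus strand: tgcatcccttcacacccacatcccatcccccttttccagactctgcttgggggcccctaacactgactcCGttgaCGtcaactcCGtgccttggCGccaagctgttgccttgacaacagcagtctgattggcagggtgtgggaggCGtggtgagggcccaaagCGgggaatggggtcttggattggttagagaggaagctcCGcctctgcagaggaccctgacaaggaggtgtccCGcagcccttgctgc
Usp29, chr7:6683044-6683293, plus strand: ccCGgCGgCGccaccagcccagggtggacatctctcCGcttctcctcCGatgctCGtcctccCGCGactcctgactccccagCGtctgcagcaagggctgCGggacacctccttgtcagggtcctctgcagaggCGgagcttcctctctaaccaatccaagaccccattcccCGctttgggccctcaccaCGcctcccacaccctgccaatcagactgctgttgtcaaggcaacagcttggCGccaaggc
Zim1, chr7:6649144-6649393, minus strand: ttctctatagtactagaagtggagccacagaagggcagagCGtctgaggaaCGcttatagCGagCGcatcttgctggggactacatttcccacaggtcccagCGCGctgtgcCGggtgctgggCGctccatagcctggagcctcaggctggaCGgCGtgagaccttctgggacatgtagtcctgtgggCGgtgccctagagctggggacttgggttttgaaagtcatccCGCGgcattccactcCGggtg
Magel2, chr7:69521615-69521864, plus strand: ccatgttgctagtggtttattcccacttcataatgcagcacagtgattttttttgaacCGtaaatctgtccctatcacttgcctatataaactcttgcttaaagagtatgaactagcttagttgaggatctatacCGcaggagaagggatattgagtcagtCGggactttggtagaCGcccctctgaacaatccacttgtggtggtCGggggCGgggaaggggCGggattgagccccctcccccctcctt
Peg12, chr7:69609397-69609646, minus strand: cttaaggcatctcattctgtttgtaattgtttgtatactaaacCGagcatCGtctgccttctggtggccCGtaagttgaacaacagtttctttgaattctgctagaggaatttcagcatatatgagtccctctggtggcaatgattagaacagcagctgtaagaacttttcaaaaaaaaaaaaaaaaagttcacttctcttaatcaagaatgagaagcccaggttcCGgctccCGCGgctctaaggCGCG
The windows of Peg3 and Usp29 share 163 bases on opposite strands, so the RefSeq start of Usp29 lies at the Peg3 start, far from the short annotated model. They hold 8 and 14 CpG, Zim1 holds 14, Magel2 7 and Peg12 8, against a median of 6 over 32536 RefSeq windows of the same length. Motifs were searched on both strands, and in the windows of the members no match of one overlapped a match of the other. A YY1 motif, GCCATNTT, was in the windows of Mkrn3 and Ube3a and in 3.93% of all windows, and the ZFP57 hexamer, TGCCGC, was in the window of Zim1 and in 8.75% of all windows.

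The deposited tables give for each gene 1 mean over the WT and clone libraries compared. Reads per library were recovered from these means by a search among sets of whole numbers in which replicates agree within a set spread. A set was accepted where it alone reproduced both tables of a stage. This gave 21 of 36 combinations of the 9 genes and 4 stages. Snrpn, Magel2 and Peg12 were recovered at 4 stages, Zim1 and Mkrn3 at 3, Usp29 at 2 (primed and CM), Ndn in primed cells alone, and Peg3 and Ube3a at none. Libraries are listed in order of size factor and carry no replicate number. A normalized read is a read divided by a factor that sets all 27 libraries on one scale, and ratios are log2 of mean normalized reads plus 1 with the standard error (SE) from the spread of libraries. With 2 or 3 libraries per group this SE can fall below the noise of counting. A small SE alone therefore does not mark a firm difference. Libraries held about 34.3 to 39.6 M (megareads) in naive cells and 15.1 to 19.3 M at the other stages. Recovery favors lower levels, above all in naive cells, where 42.1% of the genes with reads were recovered with a median base mean of 3.54, against 73.5% to 78.4% at the other stages.

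The knockout was checked first. Zfp512b (mm9 chr2:181316808-181327508) had 977 and 979 reads in primed WT, 188 and 213 in KO4 and 183 and 135 in KO8, which is log2 -2.21 (SE 0.10) and -2.49 (SE 0.13). In CM it had 1199 and 1076 reads in WT, 179 and 199 in KO4 and 165 and 169 in KO8. Both clones were below WT without overlap. In naive cells and NPC the reads of Zfp512b were not recovered, so the labels were not checked there.

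**Figure D1:**
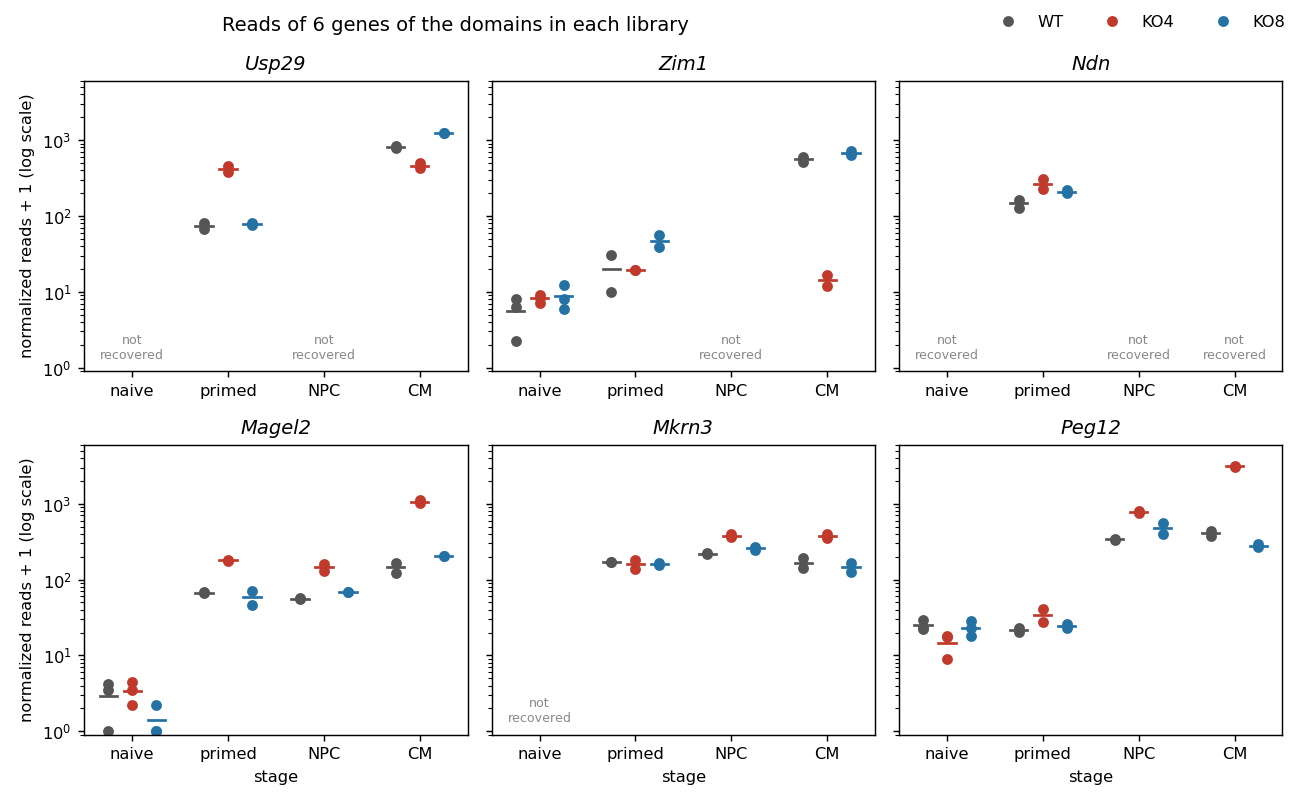
Normalized reads plus 1 (log axis) of the 6 genes with recovered reads and at least 10 of them in some library, by stage. Each point is a library and each bar a group mean, in WT (grey), KO4 (red) and KO8 (blue). In CM, KO4 stood far below WT for Zim1 (13.4 against 556) and far above it for Magel2 (1057 against 144) and Peg12 (3118 against 404). KO8 stood closer to WT, at 667 for Zim1, 203 for Magel2 and 280 for Peg12.

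Zim1, which encodes a zinc finger protein, had the largest difference of any recovered member. In CM the WT libraries had 670 and 543 reads, KO4 had 16 and 11, and KO8 had 786 and 637. KO4 was 41.4-fold below WT (log2 -5.27, SE 0.26), and KO8 was at log2 0.26 (SE 0.14) above it. In primed cells the WT libraries had 24 and 7 reads, KO4 had 14 and 14, and KO8 had 29 and 37. The WT libraries enclosed KO4 and lay below KO8. Naive cells had few reads, 13, 9 and 2 in WT, 14, 12 and 10 in KO4 and 19, 12 and 8 in KO8, and all groups overlapped. In NPC its base mean was 1477 in the KO4 comparison and 2265 in the KO8 comparison, and since both means hold the same WT libraries, KO4 was below KO8.

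Usp29, which belongs to the ubiquitin-specific protease family by sequence, had 54 and 61 reads in primed WT, 284 and 342 in KO4 and 58 and 54 in KO8. KO4 was 5.70-fold above WT (log2 2.50, SE 0.18), and KO8 overlapped WT (log2 0.10, SE 0.13). In CM the order was turned. There WT had 934 and 831 reads, KO4 had 428 and 488 (log2 -0.83, SE 0.12), and KO8 had 1360 and 1252 (log2 0.60, SE 0.04). These CM reads, like those of Peg12 and Zfp512b in CM, were recovered only under the assumption that replicates agree closely, so their SE is small by construction. In naive cells its base means were 183 in the KO4 comparison and 130 in the KO8 comparison, and in NPC they were 2560 and 1928, so KO4 was above KO8 at both stages.

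Peg3, a zinc finger protein of the Krüppel type that is among the best known paternally expressed genes, was too abundant for its reads to be recovered, but its base means bound the group means. In naive cells the base mean was 2511 in the KO4 comparison and 1059 in the KO8 comparison, which allows a WT mean of at most 1255 normalized reads and requires a KO4 mean of at least 1725. KO4 was therefore at least 1.37-fold above WT. In primed cells the base means were 3873 and 1256, the WT mean was at most 3323 and the KO4 mean at least 6667, at least 2.01-fold above WT. In NPC the base means were 38739 and 29184 and KO4 exceeded KO8 by 17163 normalized reads, and in CM they were 12463 and 20185 and KO8 exceeded KO4. At these later stages the bounds leave the side of WT unknown. Peg3 and Usp29 had KO4 above KO8 in naive cells, primed cells and NPC and below it in CM, whereas Zim1 had KO4 below KO8 in primed cells, NPC and CM.

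**Figure D2:**
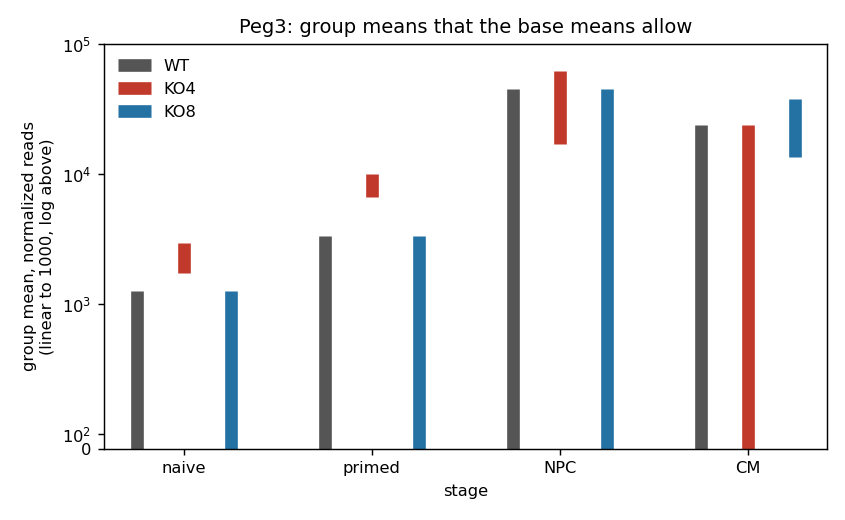
Ranges of the mean normalized reads of Peg3 (axis linear near 0 and logarithmic above) that both base means allow for WT (grey), KO4 (red) and KO8 (blue) at each stage, with bars spanning the lowest to the highest possible group mean. The KO4 range starts at 1725 in naive cells and 6667 in primed cells, above the highest possible WT mean of 1255 and 3323, and at the later stages the ranges of WT and both clones overlap.

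Magel2, a MAGE family protein that works with the ubiquitin ligase Trim27, was above WT in KO4 at every stage at which it had more than a few reads. Primed cells had 55 and 51 reads in WT, 138 and 133 in KO4 and 35 and 48 in KO8. NPC had 73 and 64 reads in WT, 205 and 153 in KO4 and 93 and 86 in KO8. CM had 137 and 175 reads in WT, 1025 and 1097 in KO4 and 224 and 208 in KO8. KO4 was thus above WT without overlap at 3 stages, by log2 1.41 (SE 0.03), 1.38 (SE 0.16) and 2.87 (SE 0.22), the last being 7.35-fold. The KO8 libraries lay on either side of WT in primed cells (log2 -0.19, SE 0.31), and KO8 was above WT by log2 0.29 (SE 0.03) in NPC and 0.49 (SE 0.22) in CM. The SE of 0.03, for KO4 in primed cells and KO8 in NPC, rests on 2 libraries per group that lay close together. The limma fits described below gave SE 0.23 and 0.27 there. In naive cells no library had more than 6 reads.

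Peg12, a Frat family gene of the kind known to bind the kinase GSK3, was, like Magel2, above WT in KO4 in NPC and CM. In CM the WT libraries had 413 and 465 reads, KO4 had 3104 and 3156, and KO8 had 321 and 275. KO4 was 7.71-fold above WT (log2 2.94, SE 0.13) and KO8 was below WT (log2 -0.53, SE 0.13). In NPC there were 440 and 410 reads in WT, 953 and 949 in KO4 and 550 and 714 in KO8, with both clones above WT by log2 1.18 (SE 0.06) and 0.48 (SE 0.24). Primed cells had 16 and 17 reads in WT, 30 and 20 in KO4 and 19 and 15 in KO8, and both clones lay a little above WT once scaled for depth (log2 0.64, SE 0.29, and 0.17, SE 0.11). In naive cells KO4 was the low group, with 53, 37 and 34 reads in WT, 29, 27 and 13 in KO4 and 47, 29 and 35 in KO8 (log2 -0.76, SE 0.35, and -0.10, SE 0.23).

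Mkrn3, a makorin RING finger protein best known as a brake on puberty, was near WT in primed cells and above it in KO4 later on. In primed cells it had 137 and 133 reads in WT, 136 and 104 in KO4 and 125 and 106 in KO8, and both ratios were near 0 (log2 -0.10, SE 0.19, and -0.09, SE 0.03). For KO8 the limma fit gave SE 0.18. In NPC it had 290 and 254 reads in WT, 463 and 472 in KO4 and 342 and 342 in KO8, or log2 0.80 (SE 0.07) and 0.24 (SE 0.05). In CM it had 215 and 149 reads in WT, 354 and 400 in KO4 and 183 and 126 in KO8, or log2 1.17 (SE 0.25) and -0.21 (SE 0.30). KO4 was above both WT libraries in NPC and CM. In naive cells the base means were almost the same in both comparisons (161 and 162).

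Ndn, which encodes the MAGE protein necdin, was above WT in both clones in primed cells, the stage at which its reads were recovered. WT had 133 and 99 reads, KO4 had 174 and 228 (log2 0.86, SE 0.27) and KO8 had 167 and 134 (log2 0.51, SE 0.19). Its base means in the KO4 and KO8 comparisons were 2781 and 1977 in NPC and 2359 and 1861 in CM, so KO4 was above KO8, and 83.7 and 97.3 in naive cells, where KO4 was below KO8.

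Snrpn, which encodes a protein of the spliceosome, was barely counted. No library had more than 4 reads, and in CM both WT and both KO8 libraries had 0 while KO4 had 3 and 0. Snurf, which shares its transcript with Snrpn, had 0 reads in all 27 libraries. Whether reads that fit both genes were left out in counting is not stated and was not tested, so these 2 rows say little about the level of the transcript. Ube3a, a ubiquitin ligase, was abundant, and its base means in the 2 comparisons were close. Its base mean in the KO4 comparison was 0.999 times that in the KO8 comparison in naive cells, 1.01 in primed cells, 1.10 in NPC and 0.950 in CM, once both were brought to the same WT scale. Both means hold the same WT libraries, which dilutes a difference between the clones. In NPC KO4 exceeded KO8 by 523 normalized reads, where the WT mean was at most 5111. The bounds leave the side of WT unknown at every stage.

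**Figure D3:**
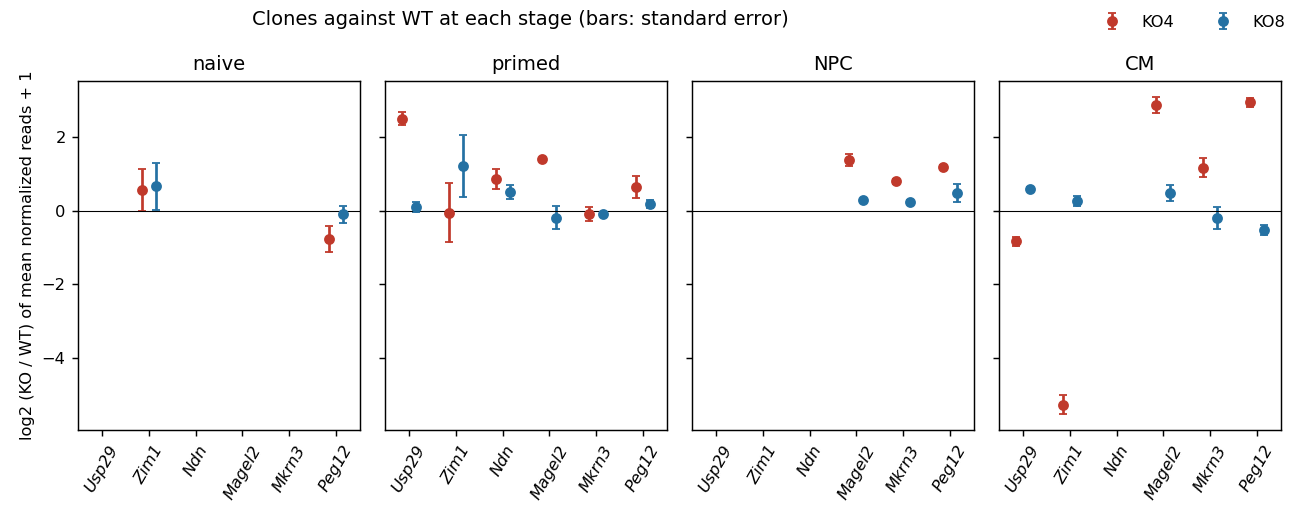
Log2 ratio of mean normalized reads plus 1 of KO4 (red) and KO8 (blue) over WT for the 6 genes at each stage, with points at the ratio and bars for the standard error; a combination without a point was not recovered or had under 10 reads in every library. In CM the KO4 points run from -5.27 (Zim1) to 2.94 (Peg12), while the KO8 points lie between -0.53 and 0.60.

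Of the combinations of gene and stage with recovered reads, 16 had at least 10 reads in a library. Among these, KO4 was above both or all WT libraries in 10, below in 3 and overlapped them in 3. KO8 was above in 9, below in 2 and overlapped in 5. With 2 libraries per group such separation is common. The shares over all genes with as many reads leave out genes recovered only on the assumption that replicates agree closely. The counts of the members hold 2 such cases, Usp29 and Peg12 in CM, where that assumption favors separation. Over all these genes, KO4 and WT did not overlap in 30.1% of genes in naive cells, 55.3% in primed cells, 53.2% in NPC and 75.5% in CM, and KO8 and WT did not overlap in 30.7%, 51.8%, 52.4% and 60.3%. In limma fits over all genes (mean of at least 10 reads, adjusted p under 0.05), 3 of 6 members tested were called higher for KO4 in primed cells (Usp29, Ndn and Magel2), where 18.1% of all genes tested were called, 3 of 3 in NPC (18.3%), and 2 higher and 1 lower of 3 in CM (50.6%). In naive cells 1 of 2 was called lower (Peg12), where 17.8% of all genes were called. For KO8, 2 of 6 members were called higher in primed cells (Zim1 and Ndn, beside 14.5% of all genes), and none of the 2, 3 and 3 tested in naive cells (17.2%), NPC (1.53%) and CM (23.7%). These contrasts are the ones the genes were chosen on, so nothing is read from the counts.

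The neighbors of the central domain were counted from all 11 annotated genes between its outermost members or within 1 Mb of them. The row named Snhg14 matches the annotation by synonym to a short model at chr7:66572581-66572689 beside Ube3a. This long RNA is known to run from the Snrpn region against Ube3a, and which part of it the authors counted is not given in the sources used here. It had 560 and 464 reads in primed WT, 1103 and 912 in KO4 and 426 and 519 in KO8. In NPC it had 373 and 334 in WT, 904 and 703 in KO4 and 387 and 371 in KO8, and in CM 285 and 306 in WT, 1061 and 1046 in KO4 and 388 and 418 in KO8. KO4 was higher at all 3 stages, by log2 1.04 (SE 0.09, limma adjusted p = 2.01e-14), 1.19 (SE 0.12, adjusted p = 3.3e-12) and 1.95 (SE 0.12, adjusted p = 1.39e-06), and KO8 in CM by 0.48 (SE 0.14, adjusted p = 0.0296). The small nucleolar RNA gene Snord64 had 18 and 19 reads in CM WT, 46 and 44 in KO4 and 21 and 16 in KO8. In CM of KO4, 5 of 5 neighbors tested were called higher (median log2 1.64, against -0.05 over all genes tested). Of all 7673 genes tested there, 1721 were called higher and 2165 lower, 50.6% together. Snhg14 and Snord64 lie inside the domain, between Ube3a and Snrpn, and the others lie outside its outermost members. Among the latter, Atp10a, an aminophospholipid transporter, had 147 and 156 reads in WT, 450 and 419 in KO4 and 135 and 162 in KO8. For KO8 in CM, 1 of 5 was called (median -0.01), beside 23.7% of all genes. In primed cells and NPC of KO4, 1 of 5 and 1 of 6 were called, beside 18.1% and 18.3% of all genes, Snhg14 in both cases.

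**Figure D4:**
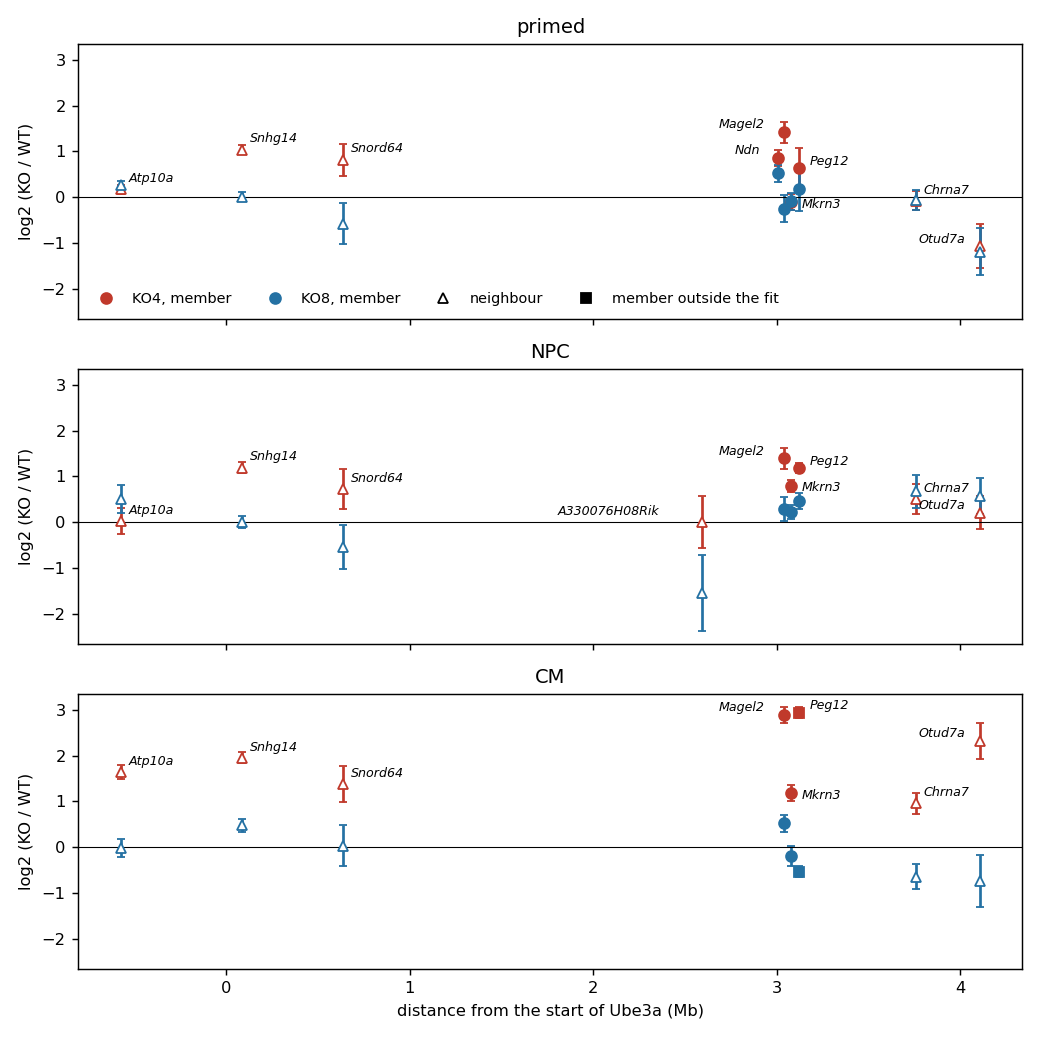
Fitted log2 ratios over WT (bars: standard error) of genes of the central domain and its neighbors, by the distance of each gene's lower coordinate from that of Ube3a (Mb), in primed cells, NPC and CM. Red is KO4, blue KO8, filled circles are members, open triangles neighbors, and squares Peg12 in CM, which was outside the fit; Snhg14 is drawn at the short model matched by synonym. In CM every KO4 point lies above 0, from 0.96 (Chrna7) to 2.94 (Peg12), while in primed cells the KO4 points of Snhg14 and Magel2 lie at 1.04 and 1.42 and that of Mkrn3 at -0.11.

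The proximal domain had 37 such neighbors, of which up to 15 could be tested at a stage. For KO4, 2 of 15 were called lower in primed cells (median log2 -0.11, against -0.05 over all genes tested), 1 of 10 higher in NPC, and 1 higher and 1 lower of 10 in CM (median -0.08). The shares of all genes called in these comparisons are 18.1%, 18.3% and 50.6%. For KO8, 2 of 15 were called lower in primed cells, and 0 of 11 and 0 of 9 in NPC and CM, where limma gave an unadjusted p under 0.05 for 2 and 0 of them. Here the shares of all genes called are 14.5%, 1.53% and 23.7%. Aurkc, a germ cell kinase close to Usp29, was called lower in both clones in primed cells, with 114 and 123 reads in WT, 50 and 39 in KO4 and 64 and 48 in KO8 (log2 -1.34, SE 0.25, limma adjusted p = 4.43e-05, and -0.94, SE 0.24, adjusted p = 0.00127). Zim2 and Zim3, listed with the Peg3 domain, had at most 3 reads in any library.

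Other imprinted genes outside the 2 domains, from hand-written lists, were read beside the members. The lists name a parental copy without regard to tissue, and the copy expressed in these cells was not measured. Of the paternally expressed ones, KO4 had 4 of 6 called higher in naive cells (median log2 1.37, against -0.02 over all genes tested) and 6 higher and 1 lower of 12 in primed cells (0.86 against -0.05). It had 5 of 8 higher in NPC (0.74 against -0.02), and 2 higher and 4 lower of 9 in CM (-0.53 against -0.05). The shares of all genes called in these comparisons are 17.8%, 18.1%, 18.3% and 50.6%. Sgce, next to Peg10, was called higher in KO4 in naive cells, primed cells and NPC (log2 1.79, SE 0.26, then 0.98, SE 0.27, then 1.27, SE 0.12), and Nnat was called higher in naive and primed cells (log2 1.69, SE 0.24, and 1.53, SE 0.18). KO8 had 1 of 6 called higher in naive cells, 0 of 11 called in primed cells (3 at an unadjusted p under 0.05 in limma), 1 of 8 higher in NPC, and 3 higher and 1 lower of 10 in CM. The shares of all genes called are 17.2%, 14.5%, 1.53% and 23.7%. Igf2 in naive cells was called higher in both clones (log2 1.91, SE 0.27, and 1.47, SE 0.28), as was Peg13 in NPC (1.24, SE 0.21, and 1.63, SE 0.28). In KO4 the same genes were called lower at another stage, Igf2 in primed cells (-1.49, SE 0.20) and Peg13 in CM (-0.53, SE 0.14). Of the maternally expressed ones, KO4 had 1 called higher and 1 lower of 4 in naive cells, 1 and 1 of 9 in primed cells and 1 and 5 of 14 in NPC. KO8 had 0 of 3 called in naive cells, 2 lower of 10 in primed cells and 0 of 14 in NPC (2 at an unadjusted p under 0.05 in limma). The shares of all genes called are those given above. In CM, KO4 had 2 called higher and 8 lower of 14 (beside 50.6% of all genes called), and KO8 had 5 higher and 2 lower of 14 (beside 23.7%). Tnfrsf23 was lower in both there (log2 -1.48, SE 0.25, and -1.41, SE 0.24), Osbpl5 lower in both (-1.38, SE 0.15, and -0.50, SE 0.13) and Slc22a18 lower in both in primed cells (-0.83, SE 0.29, and -0.99, SE 0.31). Others were called lower in KO4 and higher in KO8 in CM, namely Klf14 (-4.93, SE 0.86, and 1.49, SE 0.38), Slc22a3 (-2.75, SE 0.67, and 1.38, SE 0.34), Dcn (-1.20, SE 0.40, and 1.93, SE 0.28) and Phlda2 (-0.70, SE 0.22, and 1.90, SE 0.15). H19 in primed cells was called higher in KO4 (2.68, SE 0.11) and lower in KO8 (-1.46, SE 0.19). Factors tied to imprints and DNA methylation, not all of which keep imprints, were mostly too abundant to be recovered. In primed cells Tet3 was called higher in both clones (log2 0.42, SE 0.12, and 0.34, SE 0.12) and Dppa3 lower (-0.34, SE 0.11, and -0.33, SE 0.11). In CM Dppa3 was called higher in KO4 (log2 1.17, SE 0.22) and lower in KO8 (-3.01, SE 0.39). Dnmt3l likewise was called higher in KO4 (1.26, SE 0.31) and lower in KO8 (-2.61, SE 0.32). Tet2 was called lower in KO4 (-1.12, SE 0.17). Of the families of the members' proteins, MAGE genes and Magel2 partners had medians of log2 0.08 in KO4 and -0.09 in KO8 in primed cells, where 4 of 7 could be tested and 0 were called (1 and 0 at an unadjusted p under 0.05 in limma). The Frat genes Frat1 and Frat2 were called lower in KO4 in CM (log2 -1.10, SE 0.16, and -0.73, SE 0.13) while their relative Peg12 stood above WT there.

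Cell type markers differed from WT in CM in both clones. Of all genes tested in CM, 50.6% were called for KO4 and 23.7% for KO8, in either direction, and the counts below stand beside these shares. Neural progenitor markers summed to 8016 and 8113 normalized reads in KO4 against 249 to 266 in WT and 352 to 357 in KO8 (7 of 9 markers recovered, 1 of them at 0 in KO4), and 5 of 5 tested were called higher in KO4, among them Sox1, an early neural transcription factor (log2 6.66, SE 0.28, and 1.92, SE 0.31, in KO8). The cardiomyocyte markers recovered, 2 of 9, summed to 17.7 to 18.1 in KO4 against 1092 to 1292 in WT and 1289 to 1385 in KO8. They are a small part of the list's level, since recovery favors low genes, so the sums do not give the cardiomyocyte content. The 1 marker tested was called lower in KO4 (log2 -3.41) and was not called in KO8 (-0.56). The paper reports poor formation of beating cardiomyocytes in both clones. Mesenchyme markers (3 of 8) summed to 194 to 269 in KO4 against 1748 to 1993 in WT and 1818 to 2089 in KO8. Of the 2 mesenchyme markers tested, Prrx1 was called lower in both clones (log2 -2.80, SE 0.28, and -1.88, SE 0.20), and Lum lower in KO4 and higher in KO8 (-3.40, SE 0.58, and 2.22, SE 0.22). Naive pluripotency markers (8 of 10) summed to 2875 to 4093 in KO4, 1615 to 1641 in WT and 734 to 775 in KO8, with 5 of 8 called higher and 1 lower in KO4. In KO8, 7 of 8 were called lower. Endothelial and blood markers (2 of 8) summed to 326 to 332 in KO4, 676 to 910 in WT and 1490 to 1504 in KO8. None of these cardiomyocyte or mesenchyme markers was at 0 in any group. In NPC neural progenitor markers (6 of 9) summed to 1068 to 1333 in KO4, 372 to 521 in WT and 885 to 2136 in KO8, and the KO8 libraries thus differed from each other more than those of WT or KO4 did. Over all markers of a list, cardiomyocyte markers had a summed base mean of 27804 in CM and at most 299 at the other stages, while neural progenitor markers summed to 6209 in NPC and 7313 in CM, means that hold WT and clones together and, in CM, the high KO4 libraries. The part of these markers in the values of the 2 domains was not tested, and in bulk RNA more cells that express a gene and more RNA per cell cannot be told apart. In primed cells all 9 neural progenitor markers were recovered and summed to 1495 to 1617 in KO4, 1592 to 1684 in KO8 and 1209 to 1224 in WT.

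The change between stages in WT cells was not used in choosing the genes and could be tested. Magel2 had 6, 0 and 4 reads in the naive WT libraries, and 66.5 ± 1.25 normalized reads (SD, n = 2) in primed cells, 54.8 ± 1.33 in NPC and 144 ± 30.3 in CM. It passed the filter of a mean of 10 reads only through the stages where it is high, so its difference from naive cells is given with no test. In 1 limma fit over the 9 WT libraries, 41.9%, 77.4% and 75.6% of the 2903 genes tested were called in primed cells, NPC and CM over naive cells. A gene enters this fit only if its naive reads were recovered, which favors genes low in naive cells (median log2 over all genes tested 1.03, 2.33 and 2.43). Between the later stages Magel2 was higher in CM than in primed cells (log2 1.08, SE 0.27, adjusted p = 0.00707) and than in NPC (log2 1.37, SE 0.26, adjusted p = 0.000419), and primed cells and NPC did not pass the test (log2 -0.28, SE 0.26, adjusted p = 0.333).

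The other members were tested in pairs of stages at which they were recovered. Peg12 did not pass the limma test between naive and primed WT cells (log2 -0.17, SE 0.35, adjusted p = 0.707). It was higher in NPC than in naive cells by log2 3.82 (SE 0.19, adjusted p = 7.54e-05), where the median over all genes tested was 2.35. Over primed cells it was higher in NPC by log2 4.00 (SE 0.32, adjusted p = 1.84e-06), where that median was -0.03. Peg12 had 340 ± 6.38 normalized reads (SD, n = 2) in NPC and 404 ± 49.5 in CM. Zim1 was higher in CM than in primed WT cells by log2 5.01 (SE 0.51, adjusted p = 8.97e-05). Its naive WT reads, 13, 9 and 2, were under the filter on average, so it is not tested against naive cells. Mkrn3 had 170 ± 2.30, 217 ± 5.45 and 167 ± 36.4 normalized reads (SD, n = 2) in primed cells, NPC and CM, and no pair passed the test, with log2 0.36 (SE 0.15, adjusted p = 0.0527) for NPC over primed cells, -0.04 (SE 0.20, adjusted p = 0.87) for CM over primed cells and -0.40 (SE 0.19, adjusted p = 0.0861) for CM over NPC. NPC over primed cells passed it with stages scaled by approximate total reads (log2 1.08) and with a trend in place of voom weights (0.35). CM over NPC passed it with that scaling (-0.75) and without the first CM WT library (-0.63). The direction of Magel2 in NPC over primed cells and that of Mkrn3 in CM over primed cells turned with stages scaled by total reads (log2 0.44 and 0.33). Of all genes tested, 47.9% were called for primed over naive cells, 76.9% for NPC and 76.6% for CM over naive cells, 78.1% and 72.8% for NPC and CM over primed cells, and 54.9% for CM over NPC. Stage and batch cannot be told apart here, since the labels give no dates.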

How the data were processed

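RNA was sequenced in 27 libraries. Per the labels and methods, the authors trimmed the reads with Trim Galore 0.6.7, mapped them to mm9 (HISAT2 2.2), obtained gene counts from featureCounts (strand setting not given in the sources used here) and compared each clone with WT in DESeq2 1.46.0. The deposited tables hold, as the authors' signal value, a base mean (reads divided by size factors, averaged over the libraries compared), and the fold change, standard error, Wald statistic, p-value and adjusted p-value of that comparison, which were not used. The 9 members and all lists were chosen with earlier results of these data known.

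Genes with 1 read show each library's step in the base mean. Whole reads were then searched jointly in both tables of a stage, within regions where replicates vary by a coefficient of 0.1 to 0.3 (coverage 99.9%), and accepted when 1 solution existed and at most 0.01 were expected by chance. Narrower regions (0.05 and 0.1, at most 0.02 by chance) gave Peg12, Usp29 and Zfp512b in CM, which stay out of the fits. The recovery and the fits were tried on simulated data in which replicates agreed closely, so libraries with a wider spread were not covered. Stages were set on one scale by the median ratio of base means over 4611 genes with base means of at least 100, not by the total of recovered reads as planned, because recovered genes are low ones. Fits used limma 3.58.1 (voom) in R 4.3.3, genes with a mean of at least 10 reads, Benjamini-Hochberg adjustment over all genes tested, and 1 fit per clone and stage. Members' ratios to WT are a description, and their calls in these fits are given only as counts beside those of all genes. All members are named, and from each list up to 4 genes called in both clones in 1 direction, by the smaller of both ratios; Snhg14, Snord64, Atp10a, Chrna7, Sgce, Nnat, Frat1, Frat2, Zim2, Zim3, Snurf, Dnmt3l, Tet2, Klf14, Slc22a3, Dcn, Phlda2, H19 and Lum were named after their values were seen. Genes with a pattern like Peg3 or Snrpn were not sought, since the reads of the former were not recovered and those of the latter are near 0. Alternatives were another scaling, filter, pseudocount, fit and trend, chromosome 8 left out, and each library left out.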

Additional observations from a re-analysis of the deposited data

Results flagged for a closer look

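No group holds 4 libraries, so no test for a single outlying library within its group was made. The differences below were noted because every library of one group lay on one side of WT and every library of the other on the opposite side. None of these differences was tested. With 2 libraries per group, separation of a clone from WT is common. How often such opposite splits occur over all genes was not counted. Naive groups hold 3 libraries. The reads of Usp29 and Peg12 in CM were recovered only under the assumption that replicates agree closely, which favors separation.

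Between the clones in CM, the log2 ratio over WT of Peg12 was 2.94 in KO4 and -0.53 in KO8, a difference of 3.47. That of Usp29 was -0.83 in KO4 and 0.60 in KO8, a difference of -1.43. That of Zim1 was -5.27 in KO4 and 0.26 in KO8, a difference of -5.53.

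Between stages within a clone, the ratio of Usp29 in KO4 was 2.50 in primed cells and -0.83 in CM, a difference of 3.33. The ratio of Peg12 in KO4 was 2.94 in CM and -0.76 in naive cells, a difference of 3.70. The ratio of Peg12 in KO8 was 0.48 in NPC and -0.53 in CM, a difference of 1.01, and that of Mkrn3 in KO8 was 0.24 in NPC and -0.09 in primed cells, a difference of 0.33. The NPC values of KO8 rest on libraries in which neural progenitor markers differed widely (885 and 2136 normalized reads), and the part of that spread was not tested.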

How the results depend on the processing

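The members' ratios to WT moved by less than their spread in 92 of 96 cases under the other scaling, the pseudocount of 5 and the omission of chromosome 8. Of the alternatives to the WT stage values, the scaling by approximate total reads turned Magel2 in NPC over primed cells to 0.44 and Mkrn3 in CM over primed cells to 0.33, since it shifts all stages, and Mkrn3 in CM over primed cells ranged from -0.27 to 0.18 when 1 library was left out, the latter without the second CM WT library. In the order naive, primed, NPC and CM, KO4 had 387, 1418, 1390 and 3886 genes called and KO8 385, 1133, 118 and 1819. One fit over all 27 libraries, which tests only genes recovered at all 4 stages, called 196, 32, 344 and 1378 for KO4, 168, 39, 547 and 607 for KO8, 39 in place of 155 over the lists and 2 in place of 15 among the neighbors. With genes of the narrower regions, the naive counts were 644 and 653 and that of KO8 in NPC 311. Without a filter on low reads, KO4 in primed cells had 508, WT NPC and CM over naive cells 3747 and 3948 (in place of 2247 and 2196), and the pairs primed, NPC and CM over naive cells 1805, 3847 and 3668 (in place of 1051, 2294 and 2234). One fit per stage gave 258 for KO4 and 558 for KO8 in NPC. KO8 in NPC also went to 262 with total reads and 600 with a trend; the cause was not tested. Leaving out 1 library gave 253 to 435, 817 to 939, 851 to 1240 and 2816 to 3527 for KO4, 235 to 377, 625 to 828, 0 to 1755 and 822 to 2213 for KO8, and 776 to 1123 for WT primed over naive cells. For KO8 in NPC the count was 0 without either WT library, 1755 without the first KO8 library and 987 without the second. It was 822 and 1067 for CM without the first and second KO8 library. No paired analysis was possible because the recovered libraries carry no replicate number. The count tests planned with edgeR and DESeq2 were not run, since whole reads were recovered for only part of the genes. Depth limits the genes with few reads, and abundance, not depth, limits Peg3 and Ube3a.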
